A study of Rattus norvegicus with 3 samples.

Results

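The NMDA receptor subunit genes Grin1, Grin2a, Grin2b, Grin2c, Grin2d, Grin3a and Grin3b were described in the motor cortex of normal rats. They were chosen by gene symbol, and all 7 were found, each under 1 gene ID, among the 30957 genes of the tables. The samples were 3 untreated male Sprague-Dawley rats, numbered 32, 39 and 68, at a labelled time of 8 weeks, with 1 mRNA library of motor cortex per animal. All belong to 1 group, called normal, so the comparisons made are between genes within an animal and between animals. Levels are in FPKM, a count of fragments corrected for the length of the gene and the size of the library. A single level with an error is the mean and SD of the 3 animals (n = 3).

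NMDA receptors are glutamate-gated cation channels that let calcium into the cell and are blocked by magnesium at resting potential. Each channel combines the obligatory subunit encoded by Grin1, which binds the co-agonist glycine or D-serine, with subunits encoded by the Grin2 genes, which bind glutamate, or by the Grin3 genes, which bind glycine. In cortex they are known for their part in synaptic plasticity, and the make-up of the receptor is known to shift from Grin2b towards Grin2a during postnatal development.

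For orientation, the bases upstream of the start are shown for the highest subunit gene, Grin1, and for the next highest, Grin2c, with CG dinucleotides in capitals. They come from RefSeq in build GRCr8, which is not the build of the expression tables, and both lie on the minus strand, Grin1 at chr3:28528755-28529004 and Grin2c at chr10:101005139-101005388. Upstream sequence was matched for 4 of the 7 genes (Grin1, Grin2c, Grin2d and Grin3a).
Grin1: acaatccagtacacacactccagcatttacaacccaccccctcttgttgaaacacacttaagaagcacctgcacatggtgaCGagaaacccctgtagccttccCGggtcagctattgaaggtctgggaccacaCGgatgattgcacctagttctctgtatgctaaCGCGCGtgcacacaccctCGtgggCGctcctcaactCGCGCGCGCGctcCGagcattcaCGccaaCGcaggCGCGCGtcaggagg
Grin2c: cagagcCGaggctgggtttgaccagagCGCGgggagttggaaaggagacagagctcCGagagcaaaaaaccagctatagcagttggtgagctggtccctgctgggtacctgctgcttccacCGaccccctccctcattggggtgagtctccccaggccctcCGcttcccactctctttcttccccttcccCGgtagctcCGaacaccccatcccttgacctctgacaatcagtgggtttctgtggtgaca
The Grin1 stretch held 19 CG dinucleotides in 250 bases, a number reached by 18.4% of the 33469 rat promoter windows of that length. Grin3a held 16, Grin2d 9 and Grin2c 8, against a median of 5 over all windows. The letters GGGCGG, searched on both strands, were in 30.5% of all windows and in none of these 4. These counts describe the sequence only.

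The libraries did not hold the same mixture of cell markers, and this touches every comparison between animals. Depth, inferred from genes with short loci, gave 16.6, 15.5 and 17.7 fragments per kilobase for 1 FPKM in animals 32, 39 and 68. Animal 68 stood apart. All 7 choroid plexus markers were highest there, with summed levels of 11.5, 632 and 7524 FPKM in animals 32, 39 and 68, so that animal 39 also lay above animal 32. Likewise highest in animal 68 were 7 of 8 striatal, 9 of 9 astrocyte, 8 of 8 oligodendrocyte and 7 of 7 microglial markers. Pan-neuronal markers were lowest in animal 68 for 10 of 12 genes. Over the 13378 genes averaging 1 FPKM or more, 46.7% were highest and 35.5% were lowest in animal 68. In bulk tissue, fewer cells of a type and less RNA per cell cannot be told apart.

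Cortical markers were present in every animal, as the tissue label gives. Markers of glutamatergic neurons had a median of 83.1 ± 5.88 FPKM, those of GABAergic neurons 53.4 ± 10.6, those of upper layers 17.0 ± 9.88 and those of deep layers 14.6 ± 1.34. Markers of cerebellar granule cells, the classic site of Grin2c, had a median of 0.572 ± 0.283, with levels from 0.143, 0.254 and 0.0223 FPKM in animals 32, 39 and 68 for Gabra6 and 0, 0.0190 and 0.0332 for Cbln3 up to 2.91, 3.21 and 3.39 for Neurod1 and 4.35, 5.66 and 6.80 for Zic1. Cholinergic motor neuron markers, which bear on Grin3b, were low throughout, their median being 0.0668 (animal 39), 0.1001 (animal 32) and 0.837 FPKM (animal 68). Of the 4 found, Mnx1 was listed at 0 in all animals. Chat (0.2002, 0.181 and 0.981), Slc5a7 (0.395, 0.134 and 1.86) and Isl1 (0, 0 and 0.692) were highest in animal 68, where 7 of 8 striatal markers were highest too. Grin3b showed no detectable difference between animals, and the part of such cells in its level was not tested.

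Grin1, the obligatory subunit, was by far the highest member. It measured 110, 106 and 83.0 FPKM in animals 32, 39 and 68, a mean of 99.7 ± 14.7. This placed it at rank 612 of the 18929 genes with a value above 0, so 96.8% of them were lower. The gene lies on chromosome 3 from 2506896 to 2534663 on the minus strand of Rnor_6.0. Loci listed within it on the opposite strand, Lrrc26 and AABR07051241.1, were at 0 in every library.

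Among the glutamate-binding subunits, Grin2c was highest. It is best known from cerebellar granule cells and has also been reported in forebrain glia. Its levels were 12.7, 16.2 and 21.3 FPKM in animals 32, 39 and 68 (16.8 ± 4.33; chromosome 10, 103798291 to 103816287, minus strand), lowest in animal 32 and highest in animal 68. Grin2a, the main adult partner of Grin1 in forebrain, followed at 6.96, 15.3 and 9.37 FPKM (10.5 ± 4.27; chromosome 10, 5930298 to 6119990, plus strand), with animal 39 well above the others. Thus the ranges of Grin2c and Grin2a over animals overlapped.

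The remaining Grin2 genes were low. Grin2b, the subunit that predominates early in life and persists in adult forebrain, measured 3.85, 4.57 and 2.74 FPKM (3.72 ± 0.921; chromosome 4, 169560387 to 169999873, minus strand). Grin2d, found in early development and in interneurons, measured 2.09, 2.54 and 1.58 FPKM (2.07 ± 0.479; chromosome 1, 101820461 to 101856881, minus strand). Both were highest in animal 39 and lowest in animal 68. Grin2b lay above 44.8% and Grin2d above 37.0% of the genes with a value above 0, against 75.2% for Grin2c and 64.8% for Grin2a.

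The glycine-binding Grin3 genes differed sharply from each other. Grin3a, whose product lowers calcium permeability and is most abundant in juvenile cortex, measured 3.92, 3.54 and 2.60 FPKM (3.36 ± 0.679; chromosome 5, 64928620 to 65073012, minus strand), close to Grin2b. Grin3b, known mainly from motor neurons of brainstem and spinal cord, measured 0.0382, 0.0409 and 0.0537 FPKM (0.0443 ± 0.00827; chromosome 7, 12764993 to 12771309, plus strand), and only 5.72% of genes with a value above 0 were lower. Multiplied by depth, these values stood in the proportion of 2, 2 and 3 fragments (tolerance 0.005), which is the smallest whole number of fragments that could lie behind them. At that depth no difference in Grin3b between animals was detectable. The Grin3b locus lies wholly inside that of Palm on the opposite strand, at 76.7, 79.2 and 53.1 FPKM. Tmem259, also on the opposite strand, overlaps Grin3b by 83 bases, at 25.8, 29.3 and 24.9 FPKM. Without strand information, fragments of these overlaps cannot be told apart.

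**Figure D1:**
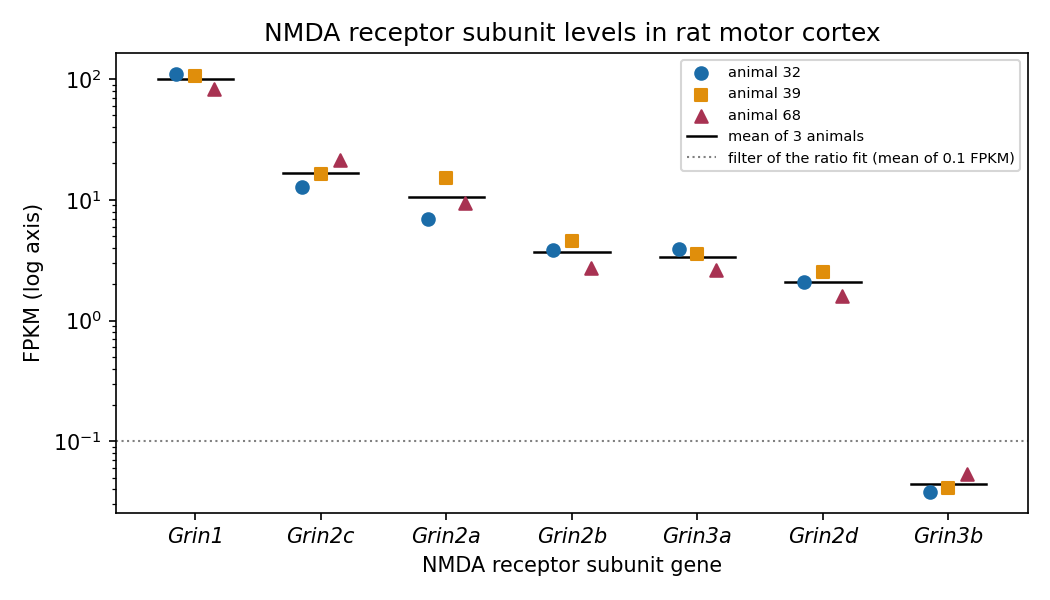
FPKM of the 7 NMDA receptor subunit genes (log axis) in each of the 3 animals, with a bar at the mean; the dotted line is the minimum mean of 0.1 FPKM for the ratio fit. Grin1 lies at 83.0 to 110 FPKM, Grin2c and Grin2a overlap, and Grin3b alone lies under the line.

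Which subunit predominates was tested by the log2 ratio of pairs within each animal. For each reference subunit, limma fitted the ratio of every gene to it, taken as log2 of FPKM plus 0.1 over the 16942 other genes averaging 0.1 FPKM or more, and p-values were adjusted over all of them. The order within a pair was set by mean levels in these same data, so its direction was chosen from them. Shares of all genes given below include genes above the reference in their total. Of the 7 members 6 passed that minimum, so 15 of the 21 pairs were tested, and 13 passed at an adjusted p under 0.05. All ratios to 1 reference share its error, so these p-values can be too small where the reference itself varied. The same pairs were therefore also fitted among 8468 pairs of genes that share no gene, an alternative added after the data were seen. There the same 13 pairs passed, and 81.6% of the other gene pairs did as well. Adjusted p-values were not larger there for every pair, as Grin2b over Grin2d had a limma adjusted p of 0.0323, against 0.0467 in the first fit. An exact sign-flip test over 3 animals cannot go below p = 0.25. Errors of gene length and mapping are common to the 3 animals and lie outside these tests, which draw on these animals only. With Grin2a or Grin2b as reference, SE and p of the first fit came from the variance over all genes of like level. They do not measure the pair's own spread between animals, and with Grin2c as reference this was nearly so.

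Grin1 exceeded all 5 other members tested, while 95.0% of all genes tested were lower than Grin1. It was above Grin2c by 3.11, 2.69 and 1.96 on the log2 scale in animals 32, 39 and 68, a mean ratio of 6.003-fold (log2 2.59, SE 0.23, n = 3; limma adjusted p = 1.77e-05). The excess over Grin2a was 9.81-fold (log2 3.29, SE 0.25; limma adjusted p = 6.39e-06), with animal 32 highest at 3.97. Ratios to Grin2b, Grin3a and Grin2d were 26.5-fold, 29.1-fold and 46.4-fold. The ratio of Grin1 to Grin3a was the steadiest of these, at 4.78, 4.86 and 4.94 on the log2 scale. All 5 ratios were above 0 in 3 of 3 animals.

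Grin2c exceeded all 4 lower members tested, while 62.9% of all genes were called lower and 19.4% higher than it. Over Grin2b it was higher by 1.70, 1.81 and 2.91 on the log2 scale in animals 32, 39 and 68, a mean of 4.41-fold (log2 2.14, SE 0.25; limma adjusted p = 8.67e-14, and 0.00123 with gene pairs that share no gene). It exceeded Grin3a 4.84-fold and Grin2d 7.73-fold. Its excess over Grin2a was small and uneven, 0.86, 0.09 and 1.18 on the log2 scale, or 1.63-fold on average (log2 0.71, SE 0.26; limma adjusted p = 0.00859, and 0.0418 with gene pairs that share no gene). That call was lost without animal 39 (limma adjusted p = 0.0694) and without animal 68 (0.0658).

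Grin2a exceeded all 3 lower members tested, where 44.4% of all genes were called lower and 23.8% higher than it. The ratio of Grin2a to Grin2b, the pair that marks the postnatal shift, was 0.84, 1.72 and 1.74 on the log2 scale in animals 32, 39 and 68. Its mean was 2.70-fold (log2 1.43, SE 0.46; limma adjusted p = 0.00316, and 0.00398 with gene pairs that share no gene). Grin2a exceeded Grin3a 2.96-fold and Grin2d 4.73-fold. Without animal 68 the ratios to Grin2b and Grin3a no longer passed (limma adjusted p = 0.212 and 0.143).

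At the low end the order was less certain. Grin2b over Grin3a was -0.03, 0.36 and 0.07 on the log2 scale, a mean of 0.14 with an SE of 0.36 (limma adjusted p = 0.732), so the animals differed in sign. Grin3a over Grin2d was 0.88, 0.46 and 0.68, a mean of 0.67 with an SE of 0.32 (limma adjusted p = 0.0645), above 0 in 3 of 3 animals, while 28.9% of all genes tested were called lower than Grin3a. Against Grin2b 1 of 2 lower members passed, while 30.1% of all genes were called lower and 52.3% higher than it. This member was Grin2d, with Grin2b over Grin2d at 0.85, 0.82 and 0.76, or 1.75-fold (log2 0.81, SE 0.39, limma adjusted p = 0.0467). That call was lost without animal 32 (0.302) and without animal 39 (0.240), where the log2 ratio was 0.79 and 0.80 and the SE 0.68 and 0.63. This SE came from the variance over all genes and not from the pair's own spread. The lost calls therefore do not show that the ratio rests on either animal. Of the neighbours in the order of levels, Grin2b and Grin3a, and Grin3a and Grin2d, thus showed no difference that passed the test. Every pair with Grin3b passed when no minimum was set, with log2 ratios from 3.89 (Grin2d) to 9.42 (Grin1) that the added 0.1 FPKM understates.

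**Figure D2:**
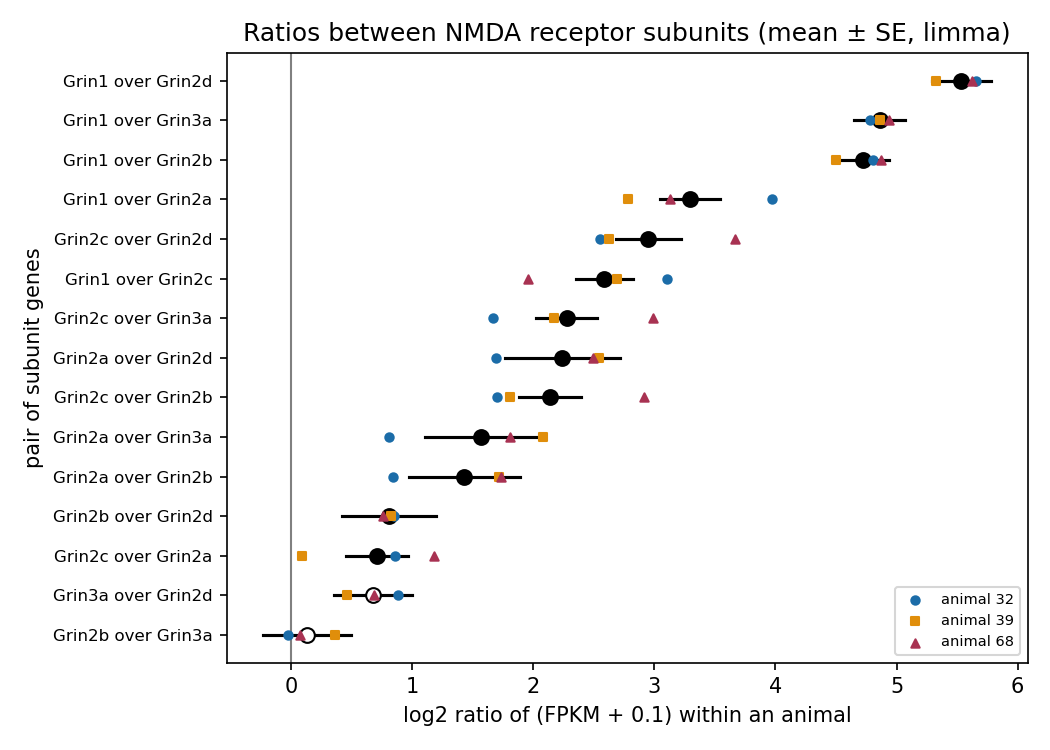
Log2 ratio of FPKM plus 0.1 for the 15 tested pairs of subunit genes; black circles and lines are the mean and SE from limma (open circles did not pass an adjusted p under 0.05), and coloured symbols are the animals. Grin1 over Grin2d is largest at 5.54, and Grin2b over Grin3a, at 0.14, has animals on both sides of 0.

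Grin2c took the largest share of the summed Grin2 level in every animal. Its share was 49.6, 42.1 and 60.9% in animals 32, 39 and 68 (50.9 ± 9.47%), that of Grin2a 27.2, 39.5 and 26.8% (31.2 ± 7.24%), that of Grin2b 15.02, 11.8 and 7.83% (11.6 ± 3.60%) and that of Grin2d 8.15, 6.58 and 4.52% (6.42 ± 1.82%). Grin2a and Grin2b, the subunits usually linked with forebrain synapses, summed to 10.8, 19.8 and 12.1 FPKM, against 12.7, 16.2 and 21.3 FPKM for Grin2c alone. The sum was above Grin2c only in animal 39, where the shares of Grin2c and Grin2a were close. Errors of gene length, common to all animals, can enter these shares and sums.

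The level of Grin1 exceeded that of all its partners together. Grin2 and Grin3 genes summed to 29.6, 42.2 and 37.7 FPKM, and Grin1 stood at 3.73, 2.50 and 2.20 times these sums (2.81 ± 0.812; exact sign-flip p = 0.25, the smallest 3 animals allow). Grin1 made up 73.0 ± 5.24% of the summed level of the 7 genes. These are transcript levels and not numbers of receptor proteins.

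The NMDA genes held about the same share of all ionotropic glutamate receptor transcripts in each animal, at 24.6, 25.8 and 24.1% of their summed level (24.8 ± 0.888%). AMPA receptor genes, which carry fast transmission, held 54.5 ± 2.20%, kainate receptor genes 18.4 ± 1.97% and delta receptor genes 2.31 ± 0.505%. In summed level the NMDA genes stood at 140, 148 and 121 FPKM and the AMPA genes at 324, 309 and 263 FPKM in animals 32, 39 and 68. The 4 AMPA genes all had means of at least 22.0 FPKM, a level that Grin1 alone reached among the NMDA genes.

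**Figure D3:**
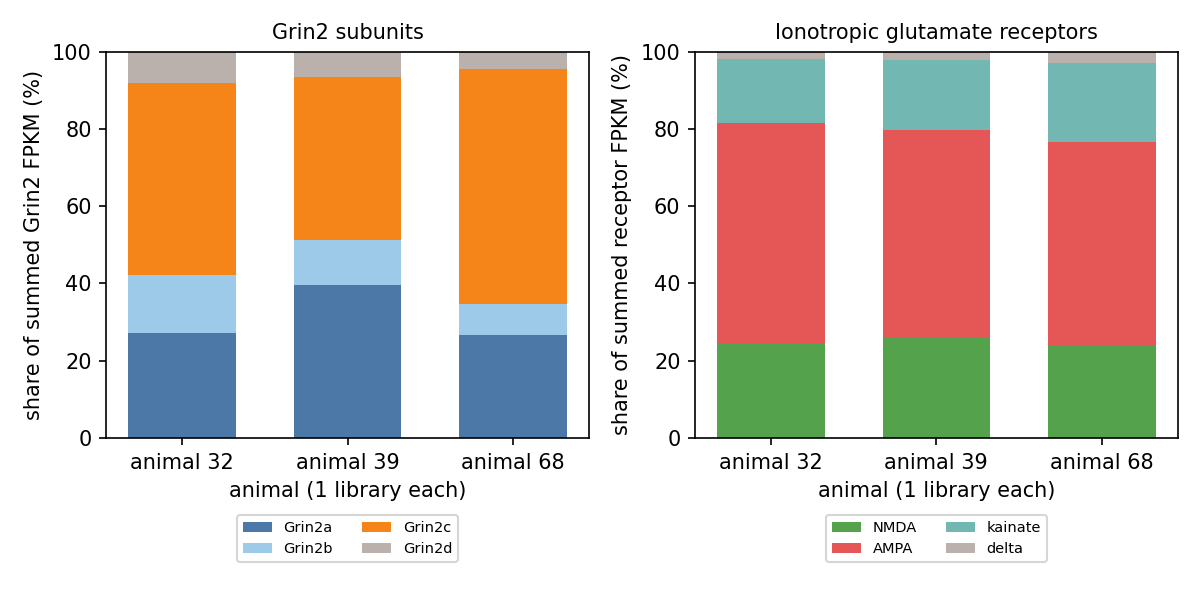
Left, share of each Grin2 gene in the summed Grin2 FPKM of each animal; right, share of the NMDA, AMPA, kainate and delta receptor genes in the summed FPKM of all ionotropic glutamate receptor genes. Grin2c holds 42.1 to 60.9% of the Grin2 sum, and the NMDA genes hold 24.1 to 25.8% of the receptor sum.

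Members did not vary alike between animals. Grin1, Grin2b, Grin2d and Grin3a were lowest in animal 68, Grin2c and Grin2a were lowest in animal 32, and Grin2c was highest in animal 68. The SD on the log2 scale was 0.22 for Grin1, 0.30 for Grin3a, 0.33 for Grin2d, 0.36 for Grin2b, 0.37 for Grin2c and 0.57 for Grin2a, against a median of 0.20 over the 13378 genes. The spread of Grin2a was larger than that of 87.8% of these genes and that of Grin1 larger than that of 54.7%. Its 2.19-fold range between animals 32 and 39 was the widest among the subunits above 1 FPKM. Without animal 68 the SD was 0.046 for Grin1, 0.10 for Grin3a, 0.17 for Grin2b and 0.19 for Grin2d, from a pair of animals each, and without animal 39 it was 0.30 for Grin2a.

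Markers of cell types moved with these differences. The geometric mean of the 12 pan-neuronal markers was 252, 235 and 197 FPKM in animals 32, 39 and 68 (summed levels from 3616 to 4902 FPKM), and Grin1 was 43.9, 45.0 and 42.2% of it. Relative to these markers the SD of Grin1 on the log2 scale was 0.047 in place of 0.22, and that of Grin3a 0.12 in place of 0.30. Scaled in this way, Grin1 was highest in animal 39 and no longer in animal 32, while it remained lowest in animal 68. GABAergic markers were highest in animal 32 for 9 of 10 genes and lowest in animal 68 for 8 of 10, against 29.2% and 35.5% of all genes. Glutamatergic markers were lowest in animal 68 for 8 of 9 genes and highest there for 1, with summed levels from 1886 to 2600 FPKM. Upper-layer markers were lowest there for 6 of 7, with medians of 27.0, 16.8 and 7.24 FPKM in animals 32, 39 and 68. Deep-layer markers did not share this order, as 4 of 8 were lowest and 2 highest in animal 68. Grin1, Grin2b, Grin2d and Grin3a were lowest in animal 68, and the part of any of these neurons in their levels was not tested.

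The order of Grin2c over the animals was the reverse of that of the pan-neuronal geometric mean. The geometric mean of the 9 astrocyte markers was 69.5, 78.3 and 142 FPKM (summed levels from 1419 to 2486 FPKM), and Grin2c was 18.3, 20.8 and 15.01% of it. Against the pan-neuronal markers Grin2c was 5.05, 6.92 and 10.8%. Its SD on the log2 scale was 0.23 relative to the astrocyte list, a scaling added after the data were seen, and 0.55 relative to the pan-neuronal list. On the astrocyte scale Grin2c was highest in animal 39 and lowest in animal 68, so the direction between animals turned. Oligodendrocyte, oligodendrocyte precursor and microglial markers had medians of 127, 204 and 373 FPKM, of 10.03, 14.2 and 25.2 FPKM and of 6.74, 10.2 and 15.5 FPKM in the same animals. The part of any of these cell types in the Grin2c levels was not tested.

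Grin2a had yet another order. It was highest in animal 39 under each of the 4 scalings tried, at 15.2 FPKM with equal totals and 14.7 relative to the pan-neuronal list. It was lowest in animal 32 under each except the astrocyte scaling, where animal 68 was lowest at 6.05 FPKM. Markers of immature neurons, which bear on Grin2b, Grin2d and Grin3a, had medians of 4.51, 4.91 and 4.98 FPKM, and Dcx, a protein of migrating neurons, was at 6.10, 6.62 and 6.07 FPKM. Endothelial markers, with a median of 13.7 ± 1.18 FPKM, were highest in animal 32 for 5 of 5 genes, against 29.2% of all genes.

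**Figure D4:**
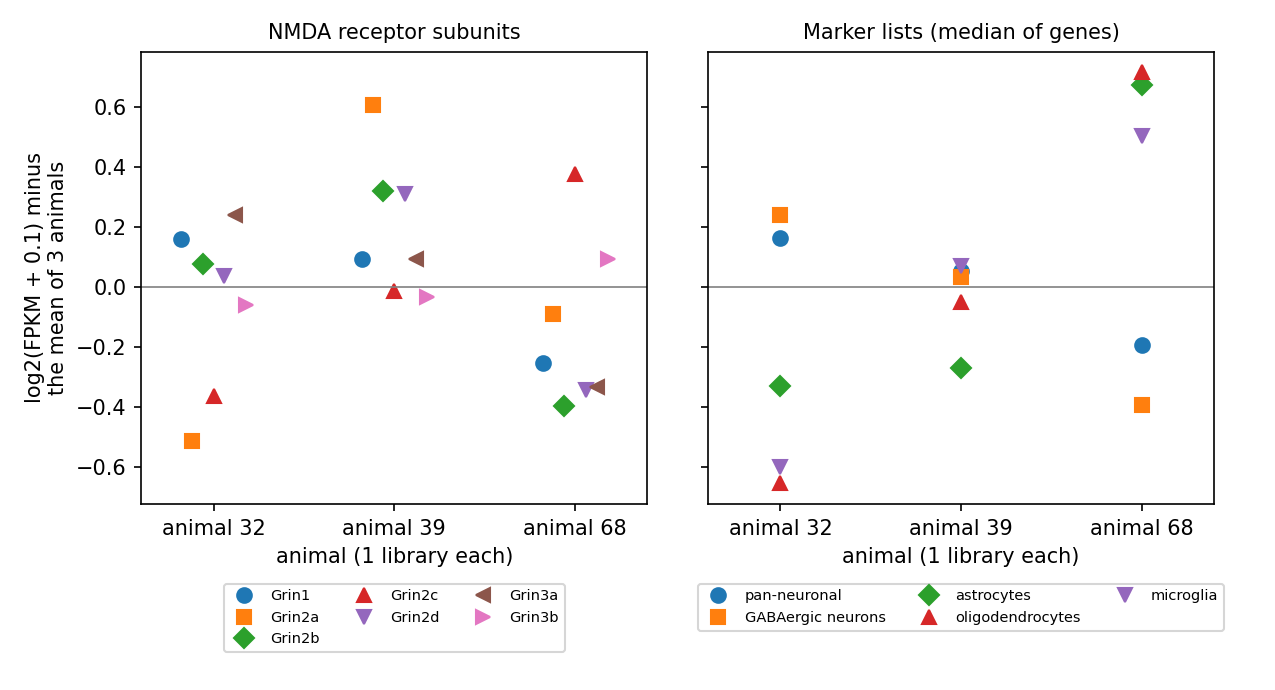
Log2(FPKM + 0.1) minus the mean of the 3 animals for each NMDA receptor subunit gene (left) and for marker lists, as the median over their genes (right). In animal 68 Grin1, Grin2b, Grin2d and Grin3a lie below 0 as do the neuronal lists, and Grin2c lies above 0 as do the astrocyte, oligodendrocyte and microglial lists.

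Genes of the receptor's surroundings were set against Grin1 in the same fit, where 2.60% of all genes were higher and 95.0% lower than Grin1 and the median log2 ratio of a gene to Grin1 was -3.90. Scaffold genes had a median log2 ratio to Grin1 of -1.36. Of 16 tested 1 was higher, Dlg4 (the postsynaptic scaffold PSD-95; 223, 237 and 168 FPKM), 14 were lower and Shank1, at 103 ± 20.2 FPKM, did not pass. Dlgap3 (69.7 ± 17.7) and Dlg2 (56.6 ± 3.93) came next.

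Among the lists of such genes, kinases, phosphatases and calcium signalling stood highest by median log2 ratio to Grin1, though below Grin1. Of 28 tested, 10 were above Grin1, 15 were below and 3 did not pass, with a median log2 ratio of -0.66. Among those above it were calmodulin genes, whose product binds the Grin1 protein when calcium enters, with Calm3 at 1041 ± 131 FPKM and Calm2 at 485 ± 94.4. The kinase subunit Camk2a, which docks on the Grin2b protein, stood at 725, 736 and 594 FPKM, or 2.78 above Grin1 on the log2 scale. The tyrosine kinase genes Src and Fyn, whose products phosphorylate Grin2 proteins, were lower, at 45.8 ± 4.51 and 28.7 ± 1.39 FPKM. Dapk1, a kinase reported to bind the Grin2b protein, was at 13.5 ± 1.68 FPKM.

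Trafficking and surface partners had a median log2 ratio to Grin1 of -1.52. Of 16 tested, 1 was higher, 14 were lower, as 95.0% of all genes were, and Nptx1 (139 ± 33.0 FPKM) did not pass. The higher one was Pacsin1, an endocytic adaptor that binds the Grin3a protein, at 153, 139 and 96.7 FPKM, highest in animal 32 as Grin3a was. Fbxo2, a ubiquitin ligase subunit that recognises the Grin1 protein, was at 66.9 ± 9.23 and Lin7b at 57.6 ± 13.6 FPKM. Kif17, a motor that carries Grin2b, was at 4.89, 7.20 and 7.47 FPKM.

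Genes that supply or remove the co-agonists were below Grin1 in 14 of 14 cases tested, near the 95.0% of all genes, with a median log2 ratio of -3.21. Srr, which makes D-serine, measured 18.7, 16.1 and 17.9 FPKM, and Dao, which degrades it, measured 0, 0.124 and 0.109 FPKM, under the minimum of the fit. The highest of the list were the serine synthesis gene Psat1 at 44.9 ± 17.0, the glycine transporter Slc6a9 at 38.5 ± 17.1 and the serine synthesis gene Phgdh at 30.5 ± 10.5 FPKM. Of the 13 list members averaging 1 FPKM or more, 11 were highest in animal 68, against 46.7% of all genes. The astrocyte markers were highest there too, and the part of astrocytes in this was not tested. Slc6a9 was at 24.8, 33.0 and 57.7 FPKM in animals 32, 39 and 68.

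Likeness of pattern was measured over the 3 animals as the largest difference, in any animal, between log2 values centred on their mean, among 89 receptor and partner genes. For Grin1 the nearest were the scaffold genes Dlg3 (0.0049), Dlgap1 (0.021) and Dlgap4 (0.026). For Grin3a they included Calm2 (0.0032) and Mib2 (0.024), and for Grin2b the amino acid transporter Slc38a5 (0.0090), Grin2d (0.054) and Grik3 (0.071). Those of Grin2d were Grik3 (0.019), Nptx2 (0.044) and Grin2b, and those of Grin2c included Actn2 (0.042) and Nptx1 (0.051). Grin2a had no near neighbour, as Kif17 (0.44), Prkcb (0.44) and Homer2 (0.47) were closest. With 3 animals, such profiles describe these libraries and no more.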

How the data were processed

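Each of the 3 libraries has 1 table of FPKM values for 30957 genes, deposited by the authors. Per the labels, fragments were counted per gene and normalized, and FPKM was computed by a Perl script. Per the submitters' processing notes, HISAT2 2.0.4, StringTie 1.3.0 and the build Rnor_6.0 are listed, with no role or order. Whether libraries were stranded, the annotation and the read length are not given in the sources used. FPKM values are not counts, so counts were not tested. Nothing says more on how the animals were kept or dissected, so p-values draw on these samples only.

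Members, gene lists and tests were chosen with earlier results of these data known. Depth was inferred from detected genes with a locus of up to 400 bases, of which 85.0, 86.6 and 82.0% had values within 0.02 of a whole number of fragments. Intervals for counting error need fragment counts, which cannot be worked out for spliced genes. Ratios were fitted with limma 3.58.1 in R 4.3.3 (moderated one-sample test with trend, Benjamini-Hochberg adjustment over all genes tested, threshold 0.05, two-sided), on log2(FPKM + 0.1). A check on simulated data used independent errors, no shared reference and no trend. It looked only at whether ratios of set size were recovered on average, so it cannot decide whether the p-values are right. For Grin2a, Grin2b and Grin2d as reference, limma's prior degrees of freedom were infinite, so the SE took nothing from a pair's own spread. Lists held 208 symbols in 23 lists, of which 202 were found by symbol or by 1 RefSeq synonym. Named genes are all members, neighbouring pairs, pairs with Grin1, Grin2a against Grin2b, and up to 4 of the highest per partner list or 2 per marker list. Also named are up to 3 genes nearest in likeness to each member averaging 1 FPKM or more. Src, Fyn, Dapk1, Dao, Gabra6, Cbln3, Isl1, Mnx1, Dcx and the loci overlapping members fall outside this rule and were chosen after their values were seen. The same holds for the levels given for Kif17, which the rule names for likeness only. A few further named genes are not reported here but stay in the list counts and medians. Alternatives changed the pseudocount, the filter, the scaling and the prior, and left out each animal. All other steps used Python 3.11.15, numpy 2.4.6, pandas 2.3.3 and scipy 1.17.1.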

Additional observations from a re-analysis of the deposited data

How the results depend on the processing

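The number of pairs that passed was 13 of 15 with a pseudocount of 1 or 0.01, without the variance trend and with gene pairs that share no gene, and 12 with the robust prior or a minimum mean of 1 FPKM. It was 18 of 21 with no minimum, where the pairs with Grin3b were added, and ran from 11 to 12 of 15 with 1 animal left out. No pair changed sign. Grin2b over Grin2d did not pass with no minimum, a minimum of 1 FPKM, no trend or the robust prior (limma adjusted p from 0.0531 to 0.0636), nor without animal 32 or 39, and Grin3a over Grin2d passed without the trend (0.0340) and without animal 68 (0.0196). In the named settings with all 3 animals these log2 ratios stayed at 0.81 and 0.67, and the calls changed with the SE and the adjustment. Levels moved by less than their SD under the 3 scalings tried for them, whose factors were centred over the animals and so leave a mean nearly in place. With 1 of 3 animals left out, a mean cannot move by as much as its SD. Leaving out an animal therefore could not decide whether mean levels and shares are stable. Scaled to the pan-neuronal list, the SD on the log2 scale was 0.047 for Grin1 and 0.12 for Grin3a, and with a pseudocount of 1 that of Grin3b was 0.011. With 1 animal left out this SD ran from 0.046 to 0.29 for Grin1, from 0.17 to 0.51 for Grin2b, from 0.10 to 0.41 for Grin3a and from 0.020 to 0.11 for Grin3b, the lowest each time without animal 68. Depth limits Grin3b alone, which rests on as few as 2 or 3 fragments. Ratios were taken within each animal, and no replicate block between groups applied because all 3 animals form 1 group.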
